A study of Mus musculus with 6 samples.

Results

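The set described here holds the 10 genes Fbn1, Mfap2, Mfap4, Mfap5, Eln, Emilin1, Fbln1, Fbln2, Fbln5 and Efemp2. They were chosen by name, as the rows whose Ensembl identifier carries one of these symbols, and all 10 were found among 41388 genes. The choice was made with earlier results of these data known. All 10 were also among the 12192 genes that were tested, those with more than 1 CPM in at least 3 libraries, where CPM is a count scaled by the total of its library. RNA-seq had been done on 6 libraries, 3 of tumor initiating cells (TICs), sorted as CD24+CD90+CD45- cells, and 3 of non-CD24+CD90+ tumor cells, the CD45- cells that lacked either or both of the sorting markers. The series description narrows the second group to cells lacking both markers, and the name used in the study's methods is kept here.

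Elastic fibers are built from a core of crosslinked elastin laid down on a scaffold of microfibrils. Fibrillins form the microfibrils, small microfibril-associated glycoproteins decorate them, EMILIN proteins sit where microfibrils meet elastin, and fibulins guide the deposition and crosslinking of elastin. In mammary tissue and mammary tumors these proteins belong to the stromal matrix and are made mainly by mesenchymal cells.

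Both groups came from primary mammary tumors of female FVB/N-TgN(MMTVPyVT)634Mul/J mice. These carry the polyoma middle T oncogene under the mouse mammary tumor virus promoter, so that every library is from transgenic tumor tissue and none is from normal gland. Tumors were harvested at a pair of ages, and the study, before it turns to RNA-seq, states that its later experiments used CD24+CD90+ cells of the younger mice. Tumors were digested with collagenase, hyaluronidase and DNase before sorting, and each library pooled several cell sorts, so that p-values measure the spread between pools. The deposited values are raw counts per gene. Levels are given below as CPM after TMM normalization, which corrects each total for composition, and groups were compared with edgeR's exactTest at a Benjamini-Hochberg adjusted p below 0.1 over all 12192 genes.

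Total counts lay between 6781239 and 8450038 for non-CD24+CD90+ tumor cells and between 8114933 and 9100552 for TICs, and 3 counts correspond to between 0.33 and 0.442 CPM. TIC replicate 3 stood farthest from the other libraries, at a mean root mean square log2 difference of 1.61 against 1.33 to 1.47 for the other 5. Of the genes behind the sorting markers, Cd24a measured 402, 405 and 602 CPM in the non-CD24+CD90+ libraries and 440, 315 and 356 CPM in the TIC libraries. Thy1, which encodes CD90, measured 75.9, 56.7 and 21.6 CPM against 90.7, 207 and 70.3 CPM. Neither passed the test (log2 fold changes of -0.34 and 1.25, exactTest adjusted p = 0.985 and 0.35). Ptprc, which encodes CD45, had 33 counts in non-CD24+CD90+ replicate 1 and none in the other 5 libraries. The epithelial genes Krt18 and Epcam were abundant throughout, with Krt18 between 1552 and 2814 CPM.

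Elastic fiber genes were higher in TICs. 5 of the 10 rose, namely Fbn1, Mfap2, Mfap4, Mfap5 and Fbln1, and none fell, while 1.36% of all tested genes were called higher in TICs and 0.189% lower, or 1.55% in either direction. All 10 log2 fold changes were above 0, a sign shared by 49.7% of all tested genes, and their median was 1.54 against -0.01 over all tested genes. For 7 of the 10, every TIC library lay above every non-CD24+CD90+ library, an order that 7.69% of all tested genes showed, while 7.55% showed the opposite order and none of the 10 did. Their summed level was 776, 795 and 897 CPM in the non-CD24+CD90+ libraries and 2030, 1958 and 1998 CPM in the TIC libraries, a ratio of 2.43. Because the 10 genes were chosen with earlier results known, the shares of all tested genes are given for scale and are no independent test. In these bulk pools, more cells of a type and more RNA per cell cannot be told apart. The number called was 3 with edgeR's quasi-likelihood test, which called 0.402% of all tested genes higher, and 6 with DESeq2, which called 1.89%. It was also 3 without non-CD24+CD90+ replicate 1, 2 without non-CD24+CD90+ replicate 2 and 4 without TIC replicate 3.

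**Figure D1:**
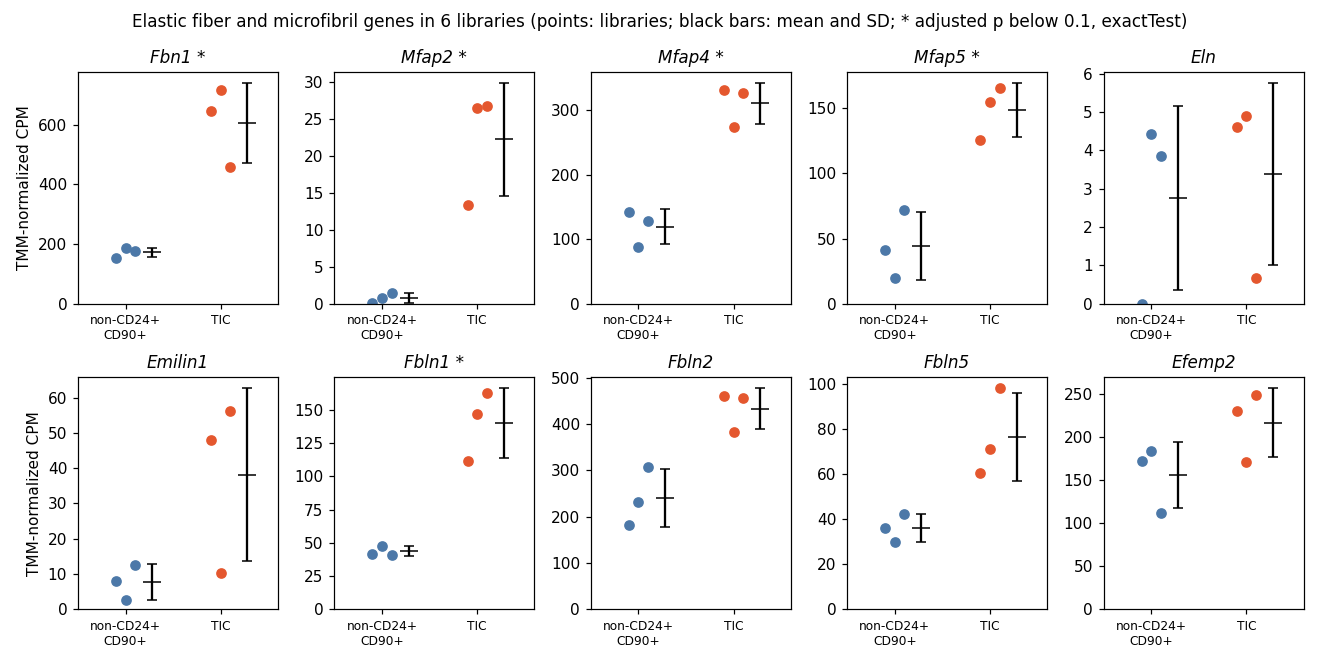
TMM-normalized CPM of the 10 genes in each library (points), with the mean and SD of each group of 3 (black bars), each panel on its own linear axis starting at 0. The groups are apart for 7 genes and overlap for Emilin1, Eln and Efemp2.

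All 4 microfibril genes were called higher in TICs, though their order among the TIC libraries differed. Fbn1 (ENSMUSG00000027204, chr2:125300594-125507993 on GRCm38, minus strand) encodes fibrillin-1, the main structural protein of microfibrils. It measured 154, 185 and 177 CPM in the non-CD24+CD90+ libraries and 644, 717 and 458 CPM in the TIC libraries. Even the lowest TIC library was 2.47 times the highest library of the other group. The means were 172 ± 16.4 and 606 ± 133.5 CPM (SD, n = 3 each), a log2 fold change of 1.82 (SE 0.292), and exactTest gave an adjusted p of 5.4e-06, the 4th smallest p of all tested genes. Fbn1 was called under all 12 other settings of test, normalization, filter and left-out library. A gene on the opposite strand, Gm9913, shares 2442 exon bases with Fbn1 and had 0 counts in all libraries.

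Mfap2 (ENSMUSG00000060572, chr4:141010418-141015984, plus strand) encodes MAGP-1, a small glycoprotein bound to fibrillin microfibrils. It was close to absent from non-CD24+CD90+ tumor cells, with 1, 7 and 10 counts, and had 122, 227 and 203 counts in TICs. In CPM these were 0.146, 0.794 and 1.43 against 13.4, 26.5 and 26.8. The lowest TIC library was 9.37 times the highest of the others, the widest gap among the 10 genes. The log2 fold change of 4.79 (SE 1.13) rests on 18 counts in the lower group, and its 95% interval ran from 2.56 to 7.01. The call (exactTest adjusted p = 0.0397) was lost with the quasi-likelihood test (adjusted p = 0.206) and when any single library other than TIC replicate 1 was left out, where the adjusted p reached 0.242.

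Mfap5 (ENSMUSG00000030116, chr6:122505845-122529290, plus strand) encodes MAGP-2, the relative of MAGP-1 on microfibrils. It measured 41.6, 19.9 and 71.8 CPM in the non-CD24+CD90+ libraries and 125, 155 and 166 CPM in the TIC libraries. The groups did not overlap, though the non-CD24+CD90+ libraries spread widely, with a coefficient of variation of 58.7% against 14.0% in TICs. This gave a log2 fold change of 1.74 (SE 0.427, exactTest adjusted p = 0.0137). The call was lost with the quasi-likelihood test (adjusted p = 0.162) and without non-CD24+CD90+ replicate 1 or 2, with an adjusted p of up to 0.143.

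Mfap4 (ENSMUSG00000042436, chr11:61485431-61488900, plus strand) encodes a secreted glycoprotein that binds elastic fibers and collagen. It measured 142, 88.7 and 128 CPM in the non-CD24+CD90+ libraries and 331, 274 and 326 CPM in the TIC libraries. Every TIC library was at least 1.93 times every other library. The log2 fold change was 1.38 (SE 0.304, exactTest adjusted p = 0.00326), and the call was lost only without non-CD24+CD90+ replicate 2 among the 12 other settings (adjusted p = 0.118). Mfap4 shares 89 exon bases with Mapk7 on the opposite strand, which had 2 counts in all 6 libraries together.

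The elastin core gene did not follow the microfibril genes past the test. Eln (ENSMUSG00000029675, chr5:134702593-134747323, minus strand) encodes tropoelastin, the soluble precursor of elastin. It had 0, 39 and 27 counts in the non-CD24+CD90+ libraries and 42, 42 and 5 counts in the TIC libraries, or 0, 4.43 and 3.86 CPM against 4.62, 4.90 and 0.66 CPM. The groups overlapped, and both held a library at or near 0. For Eln the log2 fold change was 0.29, with a 95% interval from -3.23 to 3.81 (exactTest adjusted p = 1). The interval holds large changes in both directions, beside a wide spread between the libraries of each group. Its sign turned without non-CD24+CD90+ replicate 1 (log2 fold change -0.27) and without TIC replicate 2 (-0.07).

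Emilin1 (ENSMUSG00000029163, chr5:30913402-30921277, plus strand) encodes the glycoprotein at the boundary of elastin and microfibrils. It measured 7.88, 2.50 and 12.6 CPM in the non-CD24+CD90+ libraries and 48.1, 10.1 and 56.2 CPM in the TIC libraries. TIC replicates 1 and 3 were above all other libraries, whereas TIC replicate 2 lay within the range of the other group. The log2 fold change of 2.32 (SE 0.821, 95% interval 0.71 to 3.93) did not pass the test (exactTest adjusted p = 0.281). It passed without TIC replicate 2 (adjusted p = 0.0769) and when genes with fewer than 10 counts in any library were dropped (adjusted p = 0.094).

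Of the 4 fibulin genes, 1 rose. Fbln1 (ENSMUSG00000006369, chr15:85205949-85286535, plus strand) encodes fibulin-1, a glycoprotein of basement membranes and elastic fibers. It measured 41.6, 47.8 and 40.9 CPM in the non-CD24+CD90+ libraries and 111, 147 and 163 CPM in the TIC libraries. The lowest TIC library was 2.33 times the highest library of the other group. Fbln1 had a log2 fold change of 1.69 (SE 0.344, exactTest adjusted p = 0.00091), and was called under all 12 other settings, as was Fbn1.

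Fbln2 and Fbln5 were higher in every TIC library without passing the test. Fbln2 (ENSMUSG00000064080, chr6:91212455-91272540, plus strand), which encodes fibulin-2, measured 182, 233 and 308 CPM against 462, 383 and 457 CPM. Its log2 fold change was 0.85 (95% interval 0.26 to 1.44, exactTest adjusted p = 0.202). With DESeq2 the adjusted p was 0.0331, and Fbln2 was also called when genes with fewer than 10 counts in any library were dropped. Fbln5 (ENSMUSG00000021186, chr12:101746565-101819055, minus strand) encodes fibulin-5, which binds tropoelastin and the crosslinking enzyme LOXL1. It measured 35.9, 29.8 and 42.2 CPM against 60.3, 70.9 and 98.0 CPM, a log2 fold change of 1.09 (95% interval 0.25 to 1.92, exactTest adjusted p = 0.341), and was called under none of the 12 other settings.

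Efemp2 (ENSMUSG00000024909, chr19:5473954-5482517, plus strand) encodes fibulin-4, which brings lysyl oxidase to tropoelastin. It measured 172, 183 and 112 CPM in the non-CD24+CD90+ libraries and 229, 171 and 248 CPM in the TIC libraries. TIC replicate 2 lay below the 2 highest libraries of the other group. The log2 fold change was 0.47 (95% interval -0.15 to 1.10, exactTest adjusted p = 0.894). Efemp2 shares 173 exon bases with Mus81 on the opposite strand, which had 427 counts over the 6 libraries, and whether counting used strand is not given in the sources used here.

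**Figure D2:**
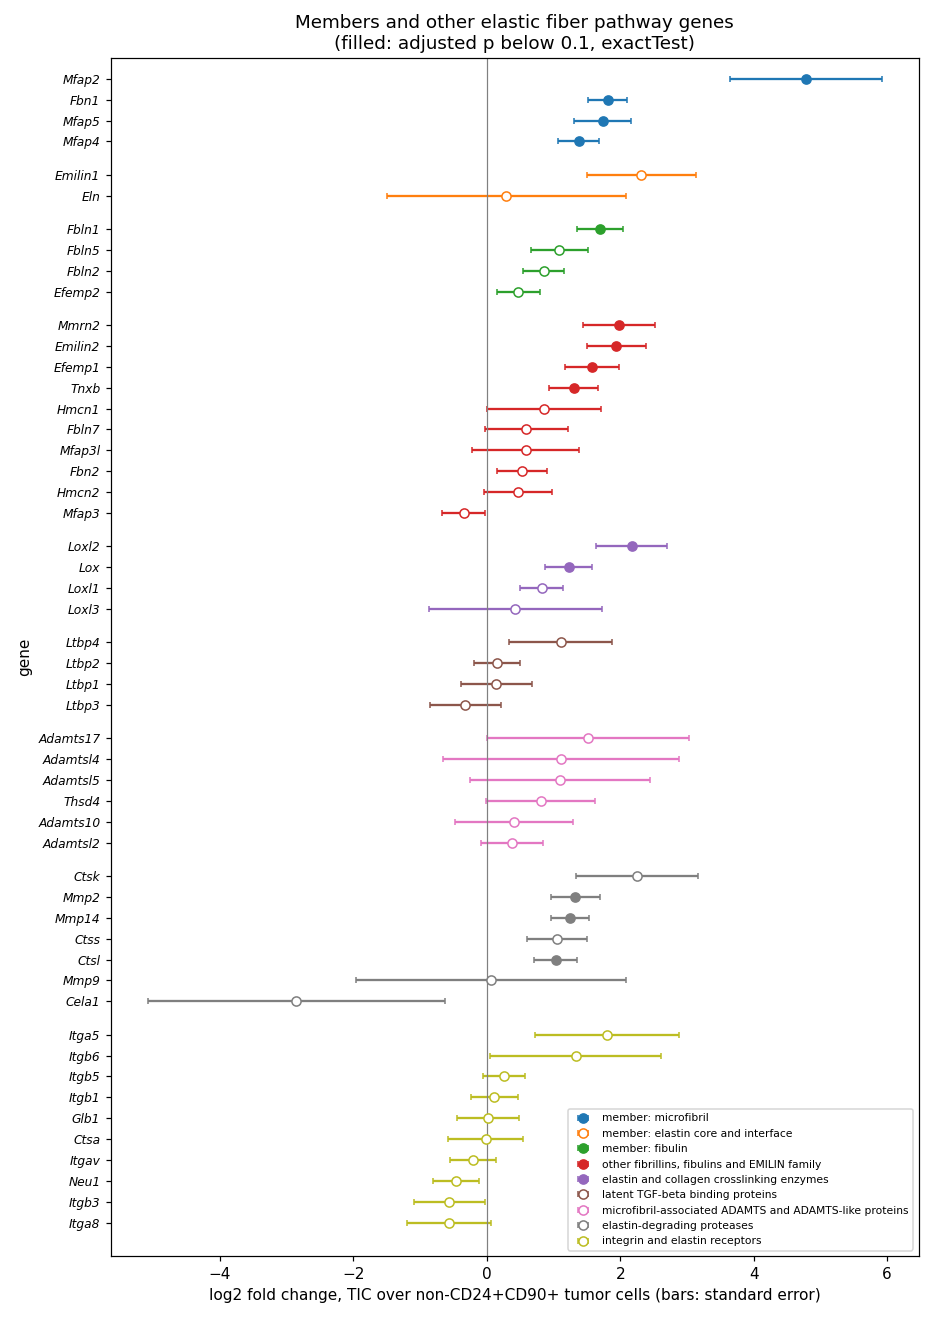
Log2 fold change of TICs over non-CD24+CD90+ tumor cells for the 10 genes and the tested genes of the other elastic fiber lists, with standard errors as bars and filled points for an exactTest adjusted p below 0.1. The 10 genes all lie right of 0, from 0.29 for Eln to 4.79 for Mfap2, whereas the receptors spread on both sides.

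The make-up of the set was compared on a per-length scale, as CPM per kilobase of the longest annotated transcript. Mfap4 had the highest level in both groups, at 67.4 ± 15.5 in non-CD24+CD90+ tumor cells and 175 ± 18.0 in TICs (SD, n = 3 each). In TICs no library of another member reached the Mfap4 range. Below it followed Fbln2 at 90.6 ± 9.24, Efemp2 at 82.1 ± 15.3, Mfap5 at 59.6 ± 8.36, Fbn1 at 50.6 ± 11.2 and Fbln1 at 38.3 ± 7.17, each of which overlapped the next in that order. A gap then separated Fbln1 from Mfap2 at 20.7 ± 7.11. Mfap2, Fbln5 at 13.1 ± 3.34 and Emilin1 at 9.91 ± 6.39 overlapped in turn, and Eln was lowest at 0.88 ± 0.615, below every library of Emilin1.

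In non-CD24+CD90+ tumor cells Mfap4, Efemp2 at 59.1 ± 14.5 and Fbln2 at 50.3 ± 13.2 formed an overlapping top group. Mfap5 at 17.8 ± 10.5, Fbn1 at 14.4 ± 1.37 and Fbln1 at 11.9 ± 1.03 overlapped below it, and Mfap2 at 0.736 ± 0.598 overlapped Eln at 0.717 ± 0.625. Mfap2 supplied 0.316% of the summed per-length level there and 3.84% in TICs, and Fbn1 6.27% and 9.48%. Efemp2 supplied 26.0% and 15.1%, although its mean level was not lower in TICs. The ratio of Fbn1 to its relative Fbn2 on the per-length scale was 2.10, 2.84 and 2.82 in non-CD24+CD90+ tumor cells and 6.75, 5.81 and 6.27 in TICs. An exact two-sided permutation test of this ratio gave p = 0.1, the smallest that 3 against 3 allows.

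**Figure D3:**
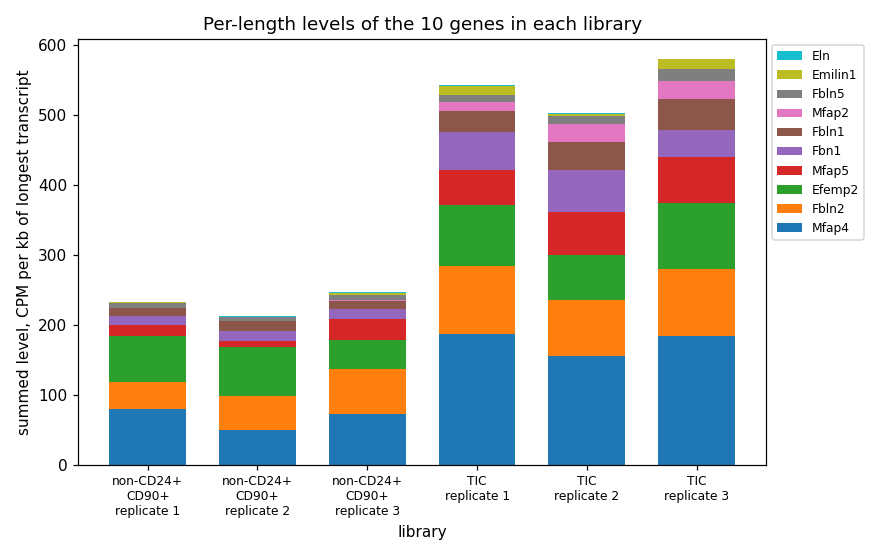
Stacked per-length levels of the 10 genes in each library, in TMM-normalized CPM per kilobase of the longest transcript. Mfap4, Fbln2 and Efemp2 make up most of every bar, and the Mfap2 band is visible only in the TIC libraries.

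Transcript start regions were read from RefSeq on GRCm38.p6, as the 250 bases before the start, for the 7 of 10 members with an entry. Windows of Fbn1, Emilin1 and Fbln2 lie wholly inside annotated exons of GENCODE release M21 and are not printed. Those of the called genes Mfap2 and Fbln1 lie outside annotated exons, save for the last 6 bases of Mfap2, and are shown because Mfap2 had the largest log2 fold change and Fbln1 was called under every setting. Both were searched on both strands for TATAAA (the TATA box), GGGCGG (the GC box), TGANTCA (known for AP-1), CATTCC (known for TEAD factors), CAGACA (known for SMAD factors) and CCAAT (the CCAAT box), and capitals mark every match. The Mfap2 window is chr4:141010174-141010423 and that of Fbln1 chr15:85205699-85205948, both on the plus strand.
Mfap2: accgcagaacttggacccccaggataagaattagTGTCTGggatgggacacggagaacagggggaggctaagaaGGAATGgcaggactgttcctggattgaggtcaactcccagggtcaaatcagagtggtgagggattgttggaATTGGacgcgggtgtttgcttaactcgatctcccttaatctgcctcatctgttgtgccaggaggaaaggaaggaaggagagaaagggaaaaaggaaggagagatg
Fbln1: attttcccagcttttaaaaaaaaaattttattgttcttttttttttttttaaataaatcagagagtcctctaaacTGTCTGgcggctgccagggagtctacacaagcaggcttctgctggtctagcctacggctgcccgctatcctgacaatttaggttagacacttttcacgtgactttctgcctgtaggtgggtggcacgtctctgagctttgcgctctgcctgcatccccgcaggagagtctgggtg

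In both windows CAGACA occurred once on the minus strand, and it occurred in 3 of the 7 members' windows and in 17.1% of all 32851 windows of this length. Mfap2 also held CATTCC and CCAAT on the minus strand. GGGCGG was found in 4 of the 7 windows against 32.7% of all windows, CCAAT in 2 against 33.8% and CATTCC in 1 against 12.6%. TATAAA was found in none, and so was TGANTCA, against 12.4% and 6.75% of all windows. The GGGCGG matches of Fbn1 and Fbln2 and the CAGACA match of Emilin1 fall in the windows that lie wholly inside annotated exons. Such matches describe letters only.

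Other genes of elastic fiber biology were taken as 49 genes in 6 lists, of which 41 were tested. These lists, too, were chosen with earlier results known. 9 rose and none fell, with a median log2 fold change of 0.59, beside the same 1.36% of all tested genes called higher. In a list made up mainly of relatives of the members, which also holds the tenascin gene Tnxb, 4 of 10 tested rose. Efemp1, which encodes fibulin-3, had a log2 fold change of 1.58 (exactTest adjusted p = 0.0189), Emilin2 of 1.94 (0.00642), Tnxb, which encodes tenascin-X, of 1.30 (0.0549) and Mmrn2, a matrix protein of endothelial cells, of 1.98 (0.0468). Efemp1 measured 69.6, 114 and 77.5 CPM against 329, 335 and 116 CPM, so that TIC replicate 3 exceeded the highest non-CD24+CD90+ library by little. Fbn2, the second fibrillin, had a log2 fold change of 0.53 and did not pass (adjusted p = 0.909). With the quasi-likelihood test 1 of the 9 remained, Mmp14, and 3 to 8 of the 41 were called when single libraries were left out.

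Crosslinking enzymes rose in 2 of 4 tested, where 1.36% of all tested genes were called higher. Lox, which oxidizes lysines of elastin and collagen, had a log2 fold change of 1.23 (exactTest adjusted p = 0.0673) and Loxl2 of 2.17 (0.0179). Loxl1, the family member tied to elastin, was higher in every TIC library, at 82.3, 64.3 and 70.5 CPM against 121, 120 and 143 CPM, without passing (adjusted p = 0.342). Of 7 tested proteases that cut elastin or act beside it, 3 rose, namely Mmp2 (log2 fold change 1.33, adjusted p = 0.0407), Mmp14 (1.25, 0.00642) and Ctsl (1.03, 0.0998). None of the 4 latent TGF-beta binding proteins, the 6 tested ADAMTS and ADAMTS-like proteins and the 10 integrins and elastin receptors passed, with median log2 fold changes of 0.15, 0.95 and -0.00.

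Marker lists of several other cell types were higher in TICs by sum beside the elastic fiber genes. These lists were chosen with earlier results known, and 1.36% of all tested genes were called higher. Fibroblast markers summed to between 826 and 1295 CPM in the non-CD24+CD90+ libraries and between 1622 and 2686 CPM in TICs. Of 9 tested, 4 rose (Dpt, Pi16, Cd34 and Ly6c1), and all 9 had a log2 fold change above 0. Pdgfra, at 0.65, did not pass (exactTest adjusted p = 0.854). Among those not tested, Tcf21 was at 0 in every library and Pdpn had 2 counts in 1 library. Dpp4, also not tested, went the other way by mean, from 2.70 CPM to 0.238 CPM in TICs, with overlapping groups. Pericyte and smooth muscle markers summed to between 609 and 834 CPM against between 1059 and 1742 CPM, and 1 of 12 rose (Rgs5, log2 fold change 1.45, exactTest adjusted p = 0.000466). Of the 12, 10 had a log2 fold change above 0, with a median of 0.96. Among genes that mark contractile cells, Acta2, Myh11 and Cnn1 had log2 fold changes of -0.01, 0.07 and -0.05. Tagln and Des had 1.38 and 0.96, without passing the test. They were among 5 of the 12 for which every TIC library lay above every non-CD24+CD90+ library. That order was shown by 7.69% of all tested genes. For Des the margin was small, at 8.63 CPM in TIC replicate 2 against 8.46 CPM in non-CD24+CD90+ replicate 1. The part of these markers in the result was not tested.

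Endothelial markers summed to 146, 126.5 and 152 CPM against 176, 283 and 603 CPM, with none of 8 called. Mmrn2 stood in the same order among TICs, at 38.8, 79.6 and 178 CPM, and without TIC replicate 3 it was no longer called (adjusted p = 0.552). Adipocyte markers ranged from 56.5 to 137 CPM against 192 to 1225 CPM, all from Fabp4, apart from 18 counts of Cidec in TIC replicate 2, with Adipoq, Plin1 and Lep at 0. Leukocyte markers ranged from 16.7 to 35.6 CPM against 32.1 to 90.1 CPM, with Cd3e and Adgre1 at 0. Of 3 tested, Lyz2 was called higher, at a mean of 8.6 CPM against 55.1 CPM. Csf1r and Cd68 had log2 fold changes of -1.685 and -0.31 and did not pass. Luminal epithelial markers were lower in TICs by sum, from 6204 to 6588 CPM against 4097 to 4845 CPM, with none of 10 called. None of the 10 log2 fold changes was above 0, and their median was -0.45. For 5 of the 10, every TIC library lay below every non-CD24+CD90+ library, as for 7.55% of all tested genes. Basal ones ranged from 580.5 to 1170 CPM against 479 to 704 CPM, with none of 6 called and 3 log2 fold changes above 0. The part of these lists in the result was not tested.

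**Figure D4:**
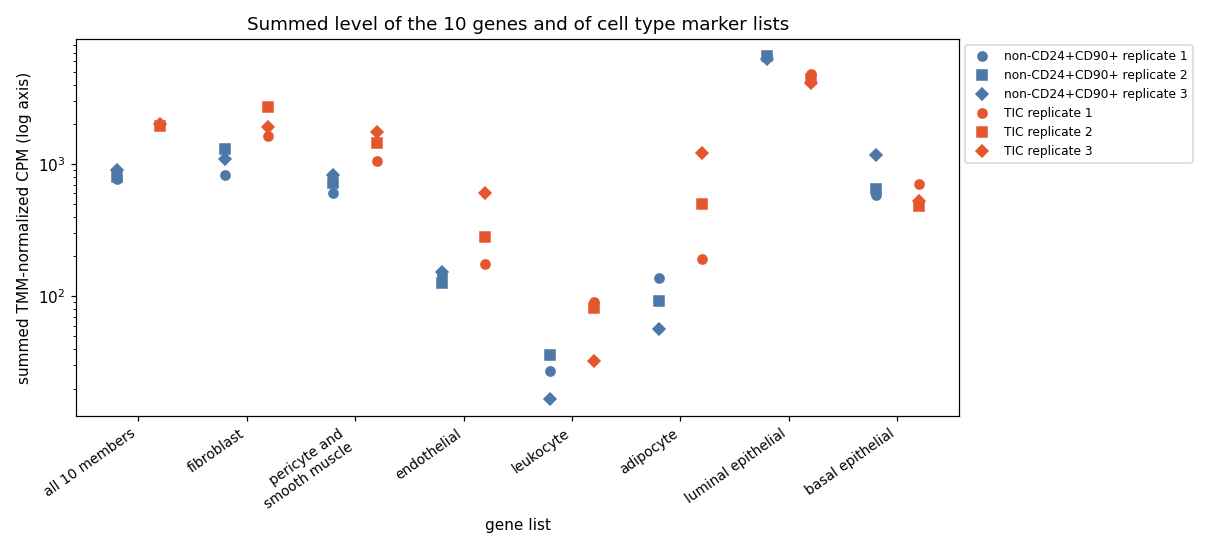
Summed TMM-normalized CPM (log axis) of the 10 genes and of 7 cell type marker lists in each library, with replicates told apart by marker shape. Sums overlap between groups for the leukocyte and basal epithelial lists and for no other list shown, and the adipocyte and endothelial sums are highest in TIC replicate 3.

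**Figure D5:**
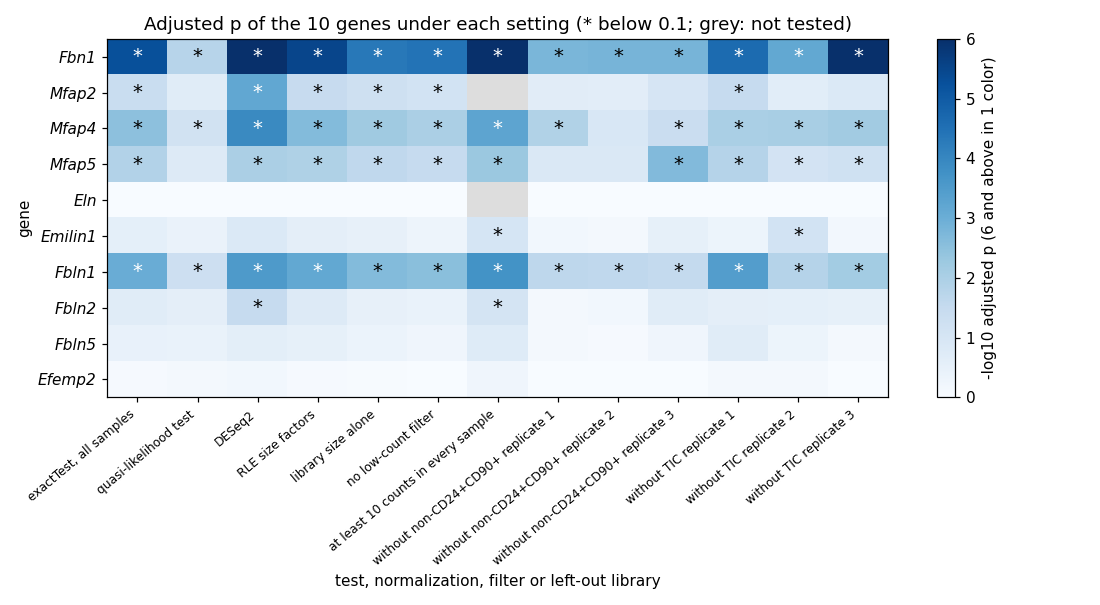
The −log10 adjusted p of each of the 10 genes as color (grey: not tested), with a star where it was below 0.1, under the exactTest on all libraries and the 12 other settings of test, normalization, filter and left-out library. Fbn1 and Fbln1 stay called throughout. Beyond the exactTest on all libraries, Mfap2 is called in 5 of the 11 other settings in which it was tested and Mfap5 in 9 of 12.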

How the data were processed

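The authors used Trimmomatic 0.32 for trimming, STAR 2.4.0 for alignment to GRCm38, SAMtools 1.1 to discard multiply mapped reads and HTSeq for counting per gene, whose version and strand setting are not given in the sources used here. The deposited values are raw counts for 41388 Ensembl genes in 6 libraries. Because multiply mapped reads were removed, genes with close copies can be undercounted.

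Symbols, lengths and coordinates came from GENCODE release M21, which matched 40254 genes. The others held 0.171% of counts. The filter kept genes that exceeded 1 CPM in 3 or more libraries, a limit that the study's methods do not give. As in the study's methods, groups were compared with exactTest of edgeR and p-values were adjusted by Benjamini-Hochberg, here over 12192 genes. TMM normalization, edgeR 4.0.16 and R 4.3.3 were chosen here, since the methods name neither a normalization nor a version of edgeR. The common dispersion was 0.678. Standard errors and 95% intervals did not come from exactTest but from a generalized linear model fit, with each gene's dispersion taken as known. They are not adjusted for the number of genes. An interval wholly above no change can thus stand beside an adjusted p that does not pass. Groups followed the descriptions in the labels, and replicates were numbered in accession order. The smallest value that an exact permutation test can give with 3 against 3 libraries is p = 0.1. In simulated counts with 200 genes changed 4-fold, exactTest recovered 57.5% and 22.8% of its calls were false. The quasi-likelihood test recovered 54.5%, with 14.8% false, and DESeq2 1.42.0 68.5%, with 48.3% false.

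The members, the other lists and the marker lists were chosen with earlier results of these data known. Named genes are all members, every other listed gene that passed the test, the genes of the sorting markers, and the 5 genes most like Fbn1 and Eln by log2 CPM profile (prior count of 2) among genes with an average of at least 10 CPM. Other listed genes named without passing the test were chosen after their values were seen. Alternatives were the quasi-likelihood test, DESeq2, RLE size factors, library size alone, no filter, a filter of at least 10 counts in every library, a threshold of 0.05, exon union lengths and each library left out in turn. Protein sequences were not used here, and the result of 1 further marker list is not reported here.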

Additional observations from a re-analysis of the deposited data

How the results depend on the processing

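Against 5 members called by exactTest, 3 were called with the quasi-likelihood test (adjusted p of 0.0167 for Fbn1, 0.0538 for Fbln1 and 0.0721 for Mfap4) and between 2 and 5 when single libraries were left out. DESeq2 called 6, the filter of 10 counts in every library 6 of the 8 members tested, and RLE size factors, library size alone, no filter and a threshold of 0.05 called 5 each. Of the other pathway genes, 9 were called by exactTest, 1 with the quasi-likelihood test, 6 without a filter or at 0.05 and between 3 and 8 with a library left out. Over all genes the count of 189 became 50 with the quasi-likelihood test, 306 with DESeq2, 112 without a filter, 116 at a threshold of 0.05 and 72 to 323 with a library left out. Of the log2 fold changes of the 10 members and the 9 called pathway genes, 187 values under alternatives kept their direction and side of the threshold, 52 lost the threshold, 4 gained it and 2 turned sign, both of Eln (-0.27 without non-CD24+CD90+ replicate 1 and -0.07 without TIC replicate 2), whose values ran from -0.27 to 0.81 with single libraries left out. With exon union lengths the shares of Mfap4, Mfap5, Fbln2 and Efemp2 in TICs were 36.0%, 9.25%, 15.2% and 12.7%, and that of Fbn1 was 11.3%. Fbn1 then stood above Mfap5 by mean, at 50.0 against 41.3 CPM per kilobase in TICs. In non-CD24+CD90+ tumor cells it did so at 14.2 against 12.4. The causes of these changes were not tested. No paired analysis was possible because the labels carry running sample numbers and no replicate numbers shared between groups. The log2 fold changes of other genes named in the text were not recomputed under these alternatives. Counts were few for Eln and, in non-CD24+CD90+ tumor cells, for Mfap2.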

Other observations

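The genes whose profile over the 6 libraries was most like that of Fbn1, by root mean square difference of centred log2 CPM among 8753 genes, were Fn1 (0.21), Mob1b (0.22), Col3a1 (0.22), Col1a2 (0.23) and Dpt (0.24), against a median of 1.10. Fn1 encodes fibronectin, Col3a1 and Col1a2 encode fibrillar collagen chains, and Dpt encodes dermatopontin, a small matrix protein. Fn1 averaged 783 CPM in non-CD24+CD90+ tumor cells and 2233 CPM in TICs, and Col1a2 662 and 2666 CPM. Of the members, Fbln1 (0.33) and Mfap4 (0.43) were nearest to Fbn1, while Mfap2 (1.56), Eln (1.54) and Emilin1 (1.19) were farther than the median gene. The distance also grows where a gene changes in the same direction by more. The log2 fold changes were 4.79 for Mfap2, 2.32 for Emilin1 and 0.29 for Eln, against 1.82 for Fbn1. The profiles most like that of Eln were those of Pdxk (0.25), Ptrhd1 (0.38), Champ1 (0.41), Irf9 (0.52) and Ccl7 (0.57), against a median of 1.75. All profiles share the same 6 libraries, and the values are a description.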
